A study of Mus musculus with 4 samples.

Results

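B lineage identity genes were examined in L1210, a mouse lymphocytic leukemia cell line. The members were the transcription factors Pax5, Ebf1 and Tcf3, the receptor chains Cd79a and Cd79b, the surrogate light chains Vpreb1 and Igll1, and the recombinase subunits Rag1 and Rag2. They were chosen by name, and every probe that the deposited table assigns to one of these 9 symbols was used, which gave 14 probes, out of 24561 symbols and 55681 probes on the array. Total RNA came from 4 stable lines, with 1 Agilent 1-colour array each. All 4 lines are L1210 cells of the DBA subline 212 background that had been infected with lentivirus and sorted as GFP+ cells by flow cytometry. L1210-control carried the control vector. Each of the other lines, L1210-Fbxw11a, L1210-Fbxw11c or L1210-Fbxw11d, overexpressed 1 transcript variant of Fbxw11, an F-box protein that selects substrates for ubiquitination. The vector and the sorting are therefore common to the control as well. No line had a replicate array, so the differences below are descriptions with no test behind them.

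A B cell is made in steps that these genes mark. Tcf3, which encodes the E proteins E12 and E47 and is also called E2A, acts with Ebf1 to open the B lineage program, and Pax5 then fixes the choice of that lineage by switching on B cell genes and holding genes of other lineages low. Rag1 and Rag2 cut the immunoglobulin genes for V(D)J recombination. Vpreb1 and Igll1 (lambda 5) stand in for a light chain in the pre-B cell receptor, and Cd79a and Cd79b (Ig-alpha and Ig-beta) carry its signal into the cell.

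In all 4 lines Tcf3, Cd79a, Vpreb1 and Pax5 gave signal well above background, and Ebf1, Cd79b, Igll1, Rag1 and Rag2 did not. Signals below are intensities scaled to match the L1210-control array, and well above background is the flag that the scanner software sets for a spot. By this flag 6 of the 14 probes were measured on every array, the same 6 each time. Over all probes the share was 62.5% on L1210-control, 66.0% on L1210-Fbxw11a, 64.3% on L1210-Fbxw11c, 68.7% on L1210-Fbxw11d and 59.4% on all 4 arrays. Taking each gene by its brightest probe, 4 of the 9 members were measured on all 4 arrays, against 66.2% of all genes. A dim probe gives only an upper limit for that probe, and it does not show that the transcript was absent.

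The array reads each gene through a probe of 60 bases, and the probes below are printed 5′ to 3′ because the calls for these members rest on them. They are those with an open reading frame that were judged to lie in coding sequence, and no part of them is marked in capitals. For Pax5 and Cd79a they show what was read where a pair of probes disagreed, for Tcf3 they show a measured probe, and for Igll1 and Rag2 a probe that stayed dim. Positions are on mm9, as the file headers and the probe annotation give them. The Pax5 and Cd79a probes called junction probes have a genomic extent longer than the probe, so they cross an intron, of 32495 bases for Pax5 and 198 bases for Cd79a.
Pax5 contiguous probe, chr4:44658421-44658480, minus strand: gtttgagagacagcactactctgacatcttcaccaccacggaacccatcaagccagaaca
Pax5 junction probe, chr4:44550354-44582908, minus strand: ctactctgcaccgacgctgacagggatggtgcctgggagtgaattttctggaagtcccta
Cd79a junction probe, chr7:25684357-25684614, plus strand: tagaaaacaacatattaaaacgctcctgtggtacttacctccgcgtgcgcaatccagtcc
Tcf3 dimmer probe, chr10:79875963-79876022, minus strand: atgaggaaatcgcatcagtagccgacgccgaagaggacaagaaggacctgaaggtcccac
Igll1 probe, chr16:16861104-16861163, minus strand: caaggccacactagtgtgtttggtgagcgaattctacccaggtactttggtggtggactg
Rag2 1-spot probe, chr2:101470723-101470782, plus strand: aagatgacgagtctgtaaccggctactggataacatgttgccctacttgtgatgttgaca

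The remaining probes were Tcf3 on chromosome 10 (79872639 to 79872698), Cd79a on chromosome 7 (25686823 to 25686882), Vpreb1 on chromosome 16 (16868559 to 16868618), Ebf1 on chromosome 11 (44818438 to 44818497), Cd79b on chromosome 11 (106172780 to 106172839), Rag1 on chromosome 2 (101478813 to 101478872 and 101481051 to 101481110) and Rag2 on chromosome 2 (101472445 to 101472504). Their GC content ran from 35.0% for the proximal Rag1 probe to 46.7% for Cd79b, and that of the 6 printed probes from 45.0% to 55.0%. The Rag1 and Ebf1 probes were thus among the most AT-rich, and the part of base composition in their low signals was not tested. A probe of another name shared a run of at least 15 bases with 4 of the 14 probes, namely both Tcf3 probes, Cd79b and Igll1.

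The arrays differed in ways that bear on these values. L1210-control, L1210-Fbxw11a and L1210-Fbxw11c were on slide 1 and L1210-Fbxw11d was alone on slide 2, so for that line slide and variant cannot be told apart. Its 75th percentile signal before scaling was 954, against 620 to 672 on the others, and after scaling the 8 E1A spike-in probes differed from L1210-control by -0.59 on the log2 scale, against 0.13 and 0.15 on the other variant arrays. The 308 negative control spots of each array had a median signal of 2.07 to 3.88 on the common scale, and the lowest signal with every spot well above background was 10.4 to 18.1. Probes printed on 10 spots had a median SD between spots of 0.26 to 0.31 on the log2 scale at signals of 20 to 100 and of 0.39 to 0.69 below 20, so the errors of 1 spot given for dim members may be too small. Fbxw11 itself, on 2 probes, lay at log2 ratios of 0.03 to 0.31 to L1210-control, so the arrays do not check the labels through this gene.

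**Figure D1:**
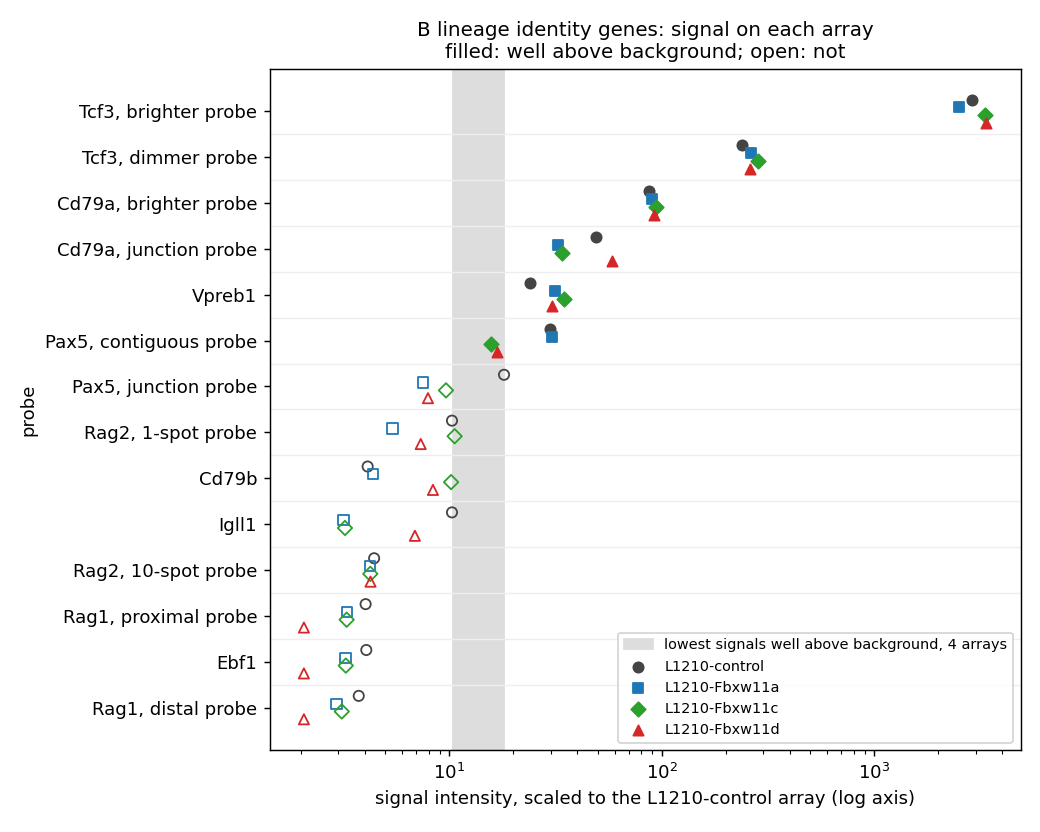
Signal of the 14 probes of the 9 members on each of the 4 arrays, scaled to the L1210-control array (log axis), with filled symbols where the probe was well above background and open symbols where it was not. The grey band spans the lowest signals well above background on the 4 arrays, from 10.4 to 18.1. The 6 filled probes, of Tcf3, Cd79a, Vpreb1 and Pax5, are filled on all 4 arrays.

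Tcf3 was measured far above background by both of its probes. Signals of the brighter probe were 2894 in L1210-control and 2512, 3325 and 3370 in the Fbxw11a, Fbxw11c and Fbxw11d lines, with an error of 251 to 337 for 1 spot in the scanner software's own error model. None of the 308 negative control spots reached these levels on any array. The log2 ratios to L1210-control were -0.20, 0.20 and 0.22, each with an error of 0.20 from the 1-spot errors. L1210-Fbxw11a was the lowest and L1210-Fbxw11d the highest, and the whole range was 1.34-fold. The dimmer probe gave 239, 262, 284 and 261 in the same order, with log2 ratios of 0.13, 0.25 and 0.12 and an error of 0.21. On this probe L1210-control was the lowest of the 4, so the probes gave L1210-Fbxw11a opposite signs, both within about 1 error of 0.

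Pax5 was measured on all 4 arrays by its contiguous probe, at low signal. It gave 29.7 ± 4.77 (error of 1 spot) in L1210-control and 30.4 ± 4.21, 15.7 ± 3.48 and 16.7 ± 2.67 in the Fbxw11a, Fbxw11c and Fbxw11d lines. On this probe L1210-control and L1210-Fbxw11a were high and L1210-Fbxw11c and L1210-Fbxw11d low. The log2 ratio to L1210-control was 0.03 with an error of 0.31 in L1210-Fbxw11a, -0.92 with an error of 0.40 in L1210-Fbxw11c and -0.83 with an error of 0.33 in L1210-Fbxw11d. These are 1.89-fold and 1.78-fold lower in L1210-Fbxw11c and L1210-Fbxw11d, under the 2-fold threshold of the study. Against L1210-Fbxw11a the log2 ratios were -0.95 with L1210-Fbxw11c and -0.86 with L1210-Fbxw11d. All 4 values lie close to the detection limit, at 1.06 to 2.12 times the array's lowest signal well above background, and 1 to 7 of the 308 negative control spots of an array were as bright or brighter. On the same scale the negative control median was 3.88 on L1210-control, 3.20 on L1210-Fbxw11c and 2.07 on L1210-Fbxw11d, and its part in the Pax5 ratios was not tested. With normexp background correction the ratio in L1210-Fbxw11c was -0.37, and with spike-in scaling that in L1210-Fbxw11d was -0.24. Normexp was run with an added offset of 50, larger than these signals. The offset alone draws ratios of dim probes toward 0, so the normexp value does not decide the size of the ratio.

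The Pax5 junction probe did not reach the flag on any array. Its signal was 18.1 ± 4.19 (error of 1 spot) in L1210-control and 7.53 ± 3.23, 9.65 ± 3.36 and 7.94 ± 2.23 in the Fbxw11a, Fbxw11c and Fbxw11d lines. L1210-control had the highest of these values, but no fold change is given where both arrays are below the flag. For L1210-Fbxw11a the Pax5 probes did not give the same picture, since the contiguous probe was level with L1210-control there. The mean over both probes, tried as an alternative, gave log2 ratios of -0.61, -0.91 and -1.01. It takes in the junction probe, which was below the flag on every array. The value in L1210-Fbxw11a rests on that dim probe, since the contiguous probe gave 0.03 there. The mean therefore does not show that all 3 variant lines lay below L1210-control.

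Ebf1, the partner of Tcf3 at the start of the lineage, was at the floor of every array. Its signals were 4.07 in L1210-control and 3.25, 3.26 and 2.07 in the Fbxw11a, Fbxw11c and Fbxw11d lines, and 12 to 101 of the 308 negative control spots were at least as bright. The value on L1210-Fbxw11d differed from the median of that array's negative controls, also 2.07, by less than the rounding. No difference between lines could be read from this probe.

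Cd79a, the Ig-alpha chain, was measured on all 4 arrays by both probes. The brighter probe gave 87.4 ± 9.64 (error of 1 spot) in L1210-control and 90.4 ± 9.65, 94.0 ± 9.99 and 91.7 ± 9.40 in the Fbxw11a, Fbxw11c and Fbxw11d lines. These 4 values lie within 1.08-fold of each other, inside the error of a single spot. The junction probe gave 49.1 ± 6.30, 32.5 ± 4.53, 34.0 ± 4.66 and 58.3 ± 6.19 in the same order. There L1210-Fbxw11a and L1210-Fbxw11c were low and L1210-Fbxw11d was high. Its log2 ratios to L1210-control were -0.60 with an error of 0.27, -0.53 with an error of 0.27 and 0.25 with an error of 0.24, and L1210-Fbxw11d was 1.79-fold above L1210-Fbxw11a. With normexp background correction they were -0.23, -0.33 and -0.15, so L1210-Fbxw11d then lay below L1210-control as well. The Cd79a probes therefore disagreed on whether the gene differed between the lines.

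Cd79b, the Ig-beta chain with which Cd79a forms a pair, stayed under the flag on every array. Its signal was 4.13 in L1210-control and 4.36, 10.2 and 8.38 in the Fbxw11a, Fbxw11c and Fbxw11d lines. The 2 higher values, in L1210-Fbxw11c and L1210-Fbxw11d, had 1-spot errors of 3.34 and 2.24, and they still fell under the lowest signals well above background.

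Vpreb1 was measured on all 4 arrays and was lowest in L1210-control. There it lay close to the detection limit, at 1.33 times the array's lowest signal well above background. On that array 6 of the 308 negative control spots were as bright or brighter. On the variant arrays Vpreb1 lay at 2.19 to 2.92 times that limit of the array. Its signal was 24.1 ± 4.53 (error of 1 spot) in L1210-control and 31.4 ± 4.35, 34.5 ± 4.66 and 30.4 ± 3.68 in the Fbxw11a, Fbxw11c and Fbxw11d lines. The log2 ratios were 0.38, 0.52 and 0.33, each with an error of 0.32 to 0.34, and all 3 comparisons share the 1 control array. The variant lines differed among themselves by at most 0.18, less than the error of 0.26. With normexp background correction the ratios were 0.12, 0.11 and -0.20, and in L1210-Fbxw11d the ratio was 0.92 with spike-in scaling. The normexp offset of 50 is larger than the Vpreb1 signals, so those values do not decide the size or sign of the ratios. Igll1, its partner in the surrogate light chain, stayed below the flag with 10.3, 3.18, 3.23 and 6.89 in the same order of lines. The values in L1210-Fbxw11a and L1210-Fbxw11c were at the level of the negative control spots, of which 113 and 121 were as bright or brighter.

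Vpreb1 and Igll1 lie near each other on the minus strand of chromosome 16, and in B lineage cells both are known targets of E proteins and Ebf1. Their 250 bases before the annotated start are shown for this reason, from the RefSeq table on GRCm38.p6, which held windows for 8 of the 9 members (not Cd79b), with every E-box, CANNTG, in capitals.
Vpreb1, chr16:16869256-16869505, minus strand: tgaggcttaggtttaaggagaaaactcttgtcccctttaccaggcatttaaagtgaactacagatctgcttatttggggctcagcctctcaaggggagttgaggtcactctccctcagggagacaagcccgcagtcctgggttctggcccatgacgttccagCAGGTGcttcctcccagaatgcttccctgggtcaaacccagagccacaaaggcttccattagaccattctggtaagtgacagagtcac
Igll1, chr16:16863986-16864235, minus strand: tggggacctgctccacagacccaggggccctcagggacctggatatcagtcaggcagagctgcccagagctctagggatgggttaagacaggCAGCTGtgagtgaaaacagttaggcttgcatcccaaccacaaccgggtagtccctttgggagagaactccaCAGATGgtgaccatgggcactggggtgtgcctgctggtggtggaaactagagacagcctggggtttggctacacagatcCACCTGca
The Vpreb1 stretch held 1 E-box and the Igll1 stretch 3, read on both strands since CANNTG is its own reverse complement. Of all 32851 such stretches in the table, 66.2% held at least 1. The E-box form CACCTG or CAGGTG occurred once in each of these sequences and in 17.2% of all stretches, and CAGCTG once in that of Igll1 and in 13.0% of all. The core CCCNNGGG, the form bound by Ebf1, occurred once before Igll1, not before Vpreb1, and in 11.8% of all. These are matches of letters and say nothing of binding.

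Neither recombinase subunit was well above background in any line. Both Rag1 probes, each on 2 spots, were at 2.95 to 4.04 on slide 1 and at 2.07 on L1210-Fbxw11d, and 12 to 230 of the 308 negative control spots were at least as bright. The Rag2 probe printed on 10 spots gave 4.43 in L1210-control and 4.25, 4.25 and 4.26 in the Fbxw11a, Fbxw11c and Fbxw11d lines. Its single spots, 9 or 10 kept on an array, ranged from 2.07 to 13.6, and only on L1210-Fbxw11d did any spot carry the flag, 2 of 10. The other Rag2 probe gave 10.3, 5.41, 10.6 and 7.34, with 1-spot errors of 2.20 to 3.89. The 10-spot probe, the most often repeated of the 14, was below the flag on every array, so it could not show whether the lines differed.

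At the 2-fold threshold no measured member differed from L1210-control. The count was 0 of 6 probes in L1210-Fbxw11a, where 5.13% of all probes compared differed, 0 of 6 in L1210-Fbxw11c, where 4.47% did, and 0 of 6 in L1210-Fbxw11d, where 6.97% did. Between the highest and the lowest of the 4 arrays the count was again 0 of 6, against 14.9% of all probes. At these background shares, 0 of 6 is no result about the members. The largest spread was that of the Pax5 contiguous probe, 1.93-fold between L1210-Fbxw11a and L1210-Fbxw11c. The other measured probes spread by 1.79-fold (Cd79a junction probe), 1.43-fold (Vpreb1), 1.34-fold and 1.19-fold (Tcf3), and 1.08-fold (Cd79a brighter probe). With spike-in scaling 3 probes passed 2-fold between the highest and lowest arrays, namely Pax5, Tcf3 (brighter) and Cd79a (junction), and Pax5 passed it in L1210-Fbxw11c against L1210-control. With median centring, quantile normalization or the deposited normalized values, the Cd79a junction probe alone passed between arrays. Without L1210-Fbxw11d the count stayed at 0.

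**Figure D2:**
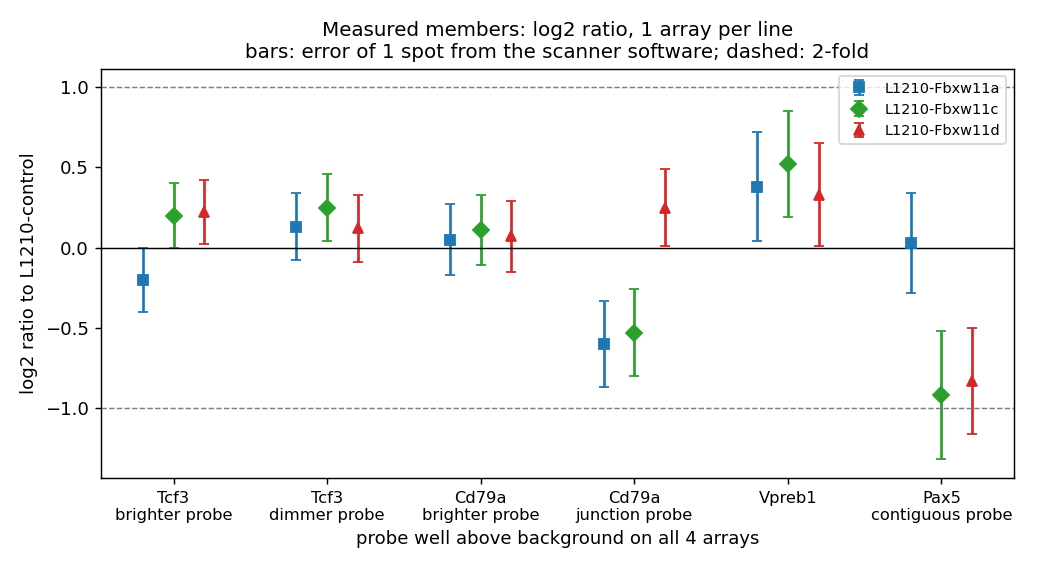
Log2 ratio to L1210-control of the 6 probes well above background on all 4 arrays, with 1 array per variant line. Bars give the error of 1 spot on each of the arrays compared, and dashed lines mark 2-fold. No point passes the dashed lines, and the lowest is Pax5 in L1210-Fbxw11c at -0.92.

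The way the arrays were scaled moved L1210-Fbxw11d more than the other lines. With spike-in scaling the median log2 ratio of all measured probes was 0.59 in L1210-Fbxw11d, -0.14 in L1210-Fbxw11a and -0.16 in L1210-Fbxw11c, against 0.00 or -0.01 with scaling on the 75th percentile. Tcf3 in L1210-Fbxw11d lay at 0.80 and 0.71 on its brighter and dimmer probes with spike-in scaling, close to the median of 0.59. Median centring put the median of all measured probes at 0.22 in L1210-Fbxw11d. Pax5 stayed below L1210-control in L1210-Fbxw11c under every scaling tried, from -1.07 to -0.37, and in L1210-Fbxw11d, from -0.83 to -0.24.

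**Figure D3:**
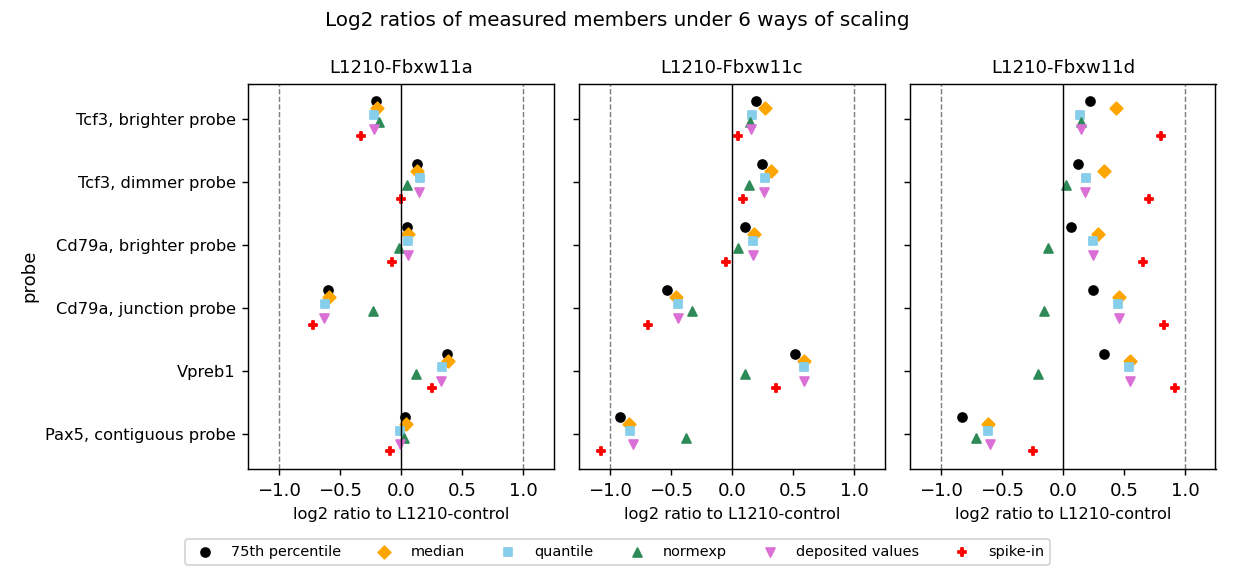
Log2 ratio to L1210-control of the 6 measured probes in each variant line under 6 ways of scaling or background correction (symbols), with dashed lines at 2-fold. In L1210-Fbxw11d spike-in scaling lies to the right of the other points for all 6 probes, and Pax5 is left of 0 in L1210-Fbxw11c and L1210-Fbxw11d under all 6 ways.

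The 5 genes whose profile over the 4 arrays was most like that of the Pax5 contiguous probe were Kif26b, Lect2, E330037I15Rik, Gm21944 and Slc16a8. Likeness was the root mean square difference of log2 signals after each profile was centred, among 21879 probes that carry a gene symbol and were measured on all 4 arrays, and it was 0.024 for Kif26b and 0.048 to 0.052 for the others. These differences are smaller than the error of the Pax5 ratios, and 4 points are few, so the ranking is a description only. Kif26b gave 107, 111, 55.2 and 59.2 in the same order of lines, with the control and Fbxw11a lines high and the others low, as for Pax5.

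Other genes of the same program were read by lists written from general knowledge. Of 18 further transcription factors and E protein partners on the array, 11 were measured on all 4 arrays and 5 on none. None was higher by 2-fold in any line, where 2.43%, 1.61% and 1.05% of all genes were in the Fbxw11a, Fbxw11c and Fbxw11d lines. Lower by 2-fold were 0, 1 and 2 genes in the same order of lines, where 2.02%, 2.27% and 4.70% of all genes were. Pou2af1, a B cell coactivator of octamer factors, gave 30.5 in L1210-control and 17.1, 10.5 and 14.2 in the Fbxw11a, Fbxw11c and Fbxw11d lines, the 10.5 being below the flag. It was at least 2.05-fold lower in L1210-Fbxw11c and 2.14-fold lower in L1210-Fbxw11d, and the latter passed 2-fold under none of the 5 other scalings, which gave -0.88 to -0.51. The bound in L1210-Fbxw11c passed it with spike-in scaling alone, at -1.19, and lay at -0.96 to -0.39 under the rest. Bcl11a, a factor needed for early lymphoid cells, gave 91.8, 86.3, 87.2 and 43.4, which was 2.11-fold lower in L1210-Fbxw11d and under 2-fold by the 5 other scalings. Its other probes did not share this, with -0.45 on one and, on the other, which was flagged on L1210-Fbxw11d but not on L1210-control, a bound of 0.44 in the opposite direction, which was -0.16 with normexp. The median log2 ratio of the list was -0.04, 0.11 and 0.09 in the 3 lines, against 0.01, 0.02 and 0.02 over all genes.

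The inhibitors of Tcf3 were bright in every line. Id2, which blocks E proteins from binding DNA, gave 2694 in L1210-control and 4223, 4425 and 5117 in the Fbxw11a, Fbxw11c and Fbxw11d lines. All 3 variant lines were above L1210-control, at log2 ratios of 0.65, 0.72 and 0.93 with an error of 0.20. All 3 comparisons share the 1 control array. With median centring or spike-in scaling L1210-Fbxw11d passed 2-fold at 1.14 and 1.51. Id3, of the same family, gave 6795, 6274, 8382 and 8961, with log2 ratios of -0.12, 0.30 and 0.40. Id1, also of this family, gave 4846, 5358, 6695 and 6338, with log2 ratios of 0.14, 0.47 and 0.39. Foxo1, a factor that works with E proteins in early B cells, gave 5476, 5956, 5955 and 8823, and its ratio in L1210-Fbxw11d was 0.69 on this probe and 0.37 on the other. Ikzf1 (Ikaros), required for lymphoid fate, stayed under the flag on every array, at 8.80 to 10.1.

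Among 22 genes of pre-B and B cell receptor signalling, 11 were measured on all 4 arrays and 8 on none. Blnk, the adaptor that links the receptor to its downstream enzymes, gave 18268 in L1210-control and 23136, 22418 and 21001 in the Fbxw11a, Fbxw11c and Fbxw11d lines. Cd81, a tetraspanin of the cell surface, gave 451, 1709, 716 and 858 in the same order, so it was 3.79-fold higher in L1210-Fbxw11a, and its ratio there was 1.79 to 1.93 by the other scalings. It was the only gene of the list that was higher by 2-fold than L1210-control in any line, and the list's median log2 ratios were 0.13, 0.17 and -0.11. Vpreb3, a further chain of the Vpreb family, was measured at 128, 158, 116 and 105, while Vpreb2 was flagged on L1210-Fbxw11d alone, at 6.99, 12.5, 8.88 and 10.9. Il7r, the receptor that early B cells need to survive, lay at 2.07 to 3.67, below the flag on every array.

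The joining step of V(D)J recombination contrasted with the Rag genes in detection. All 13 genes of this list were measured on all 4 arrays, and 0 of 13 differed by 2-fold in any line, with medians of -0.11, 0.05 and 0.18. Over all genes 66.2% were measured on all 4 arrays and 1.05% to 4.70% were at 2-fold in 1 direction in a line, so 0 of 13 is no result about the list. Dntt, which adds bases at the joins and is active in lymphoid precursors, gave 222 in L1210-control and 229, 142 and 263 in the Fbxw11a, Fbxw11c and Fbxw11d lines, and the log2 ratio in L1210-Fbxw11c was -0.64 with an error of 0.21. The other 12 are DNA repair and chromatin genes that most cells express. Beside Igll1, the symbols that began with Igh, Igk or Igl were 10, of which Iglon5 is a cell adhesion gene, and 5 of these 10 were measured on all 4 arrays. One of them, Igkv4-53, gave 49.4, 32.6, 88.8 and 17.0, which was 2.90-fold lower in L1210-Fbxw11d, with log2 ratios of -1.32 to -0.95 by the other scalings.

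Genes that Pax5 keeps low in normal B cells were counted beside it. Of 12, 7 were measured on all 4 arrays, against 66.2% of all genes. Those lower by 2-fold were 1 of 8, 1 of 7 and 3 of 8 compared in the Fbxw11a, Fbxw11c and Fbxw11d lines, where 2.02%, 2.27% and 4.70% of all genes were, and none was higher. Cd28, a costimulatory receptor of T cells, gave 192 in L1210-control and 85.5, 85.7 and 74.2 in the Fbxw11a, Fbxw11c and Fbxw11d lines, with log2 ratios of -1.17, -1.17 and -1.37. Cd28 was lower in all 3 lines under every scaling tried, and all 3 comparisons share the 1 control array. It was under 2-fold with normexp in L1210-Fbxw11a and L1210-Fbxw11c (-0.79 and -0.86) and with spike-in scaling in L1210-Fbxw11d (-0.79). Csf1r, the receptor for macrophage growth factor, gave 1104, 1097, 1030 and 507, but its ratio in L1210-Fbxw11d was -1.12 on this probe and -0.26 on the next, and the former was -0.90 with median centring and -0.54 with spike-in scaling. Flt3, a receptor of early progenitors, gave 65.1, 61.8, 55.9 and 30.1, a ratio of -1.11 in L1210-Fbxw11d that was -0.89 to -0.53 by the other scalings. The median log2 ratios of the list were -0.02, -0.08 and -0.45, against 0.01, 0.02 and 0.02 over all genes.

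Markers of later B cells and of other lineages were read to set the members beside the label of the line. Of 17 mature B and plasma cell genes, 11 were measured on all 4 arrays, or 64.7% against 66.2% of all genes. None of the 12 compared in a line differed by 2-fold, which at the shares above is no result about the list. Bcl6, the germinal centre repressor, gave 1733 in L1210-control and 1300, 1121 and 1258 in the Fbxw11a, Fbxw11c and Fbxw11d lines. The log2 ratios were -0.41, -0.63 and -0.46, all against the same control array. Of 14 T cell markers, 9 were measured on all 4 arrays, among them Cd4 at 2830 to 3071 and Cd3e at 1293 to 1599, while the summed signal of the list was 6174 in L1210-control and 6584 to 6970 in the variant lines. Zap70 was the only T cell marker at 2-fold, 2.14-fold lower in L1210-Fbxw11c on its brighter probe, where the other probe gave a log2 ratio of 0.04. In L1210-Fbxw11d these Zap70 probes gave -0.31 and -1.64. Of 12 myeloid markers, 10 were measured on all 4 arrays, among them Itgam at 4671 to 5119 and Elane at 1461 to 1737, with summed signals of 18896 to 22753, and Csf1r was the only one at 2-fold, with the limits given above. The B cell markers Ms4a1 and Cd79b, the T cell marker Cd3g and Lyz2 of the myeloid list were below the flag on every array. They were named after their values were seen, so they say little on the label of a lymphocytic leukemia. Measured on all 4 arrays were 11 of 22 receptor signalling genes, among them Blnk, Vpreb3 and Cd81, and 4 of the 9 members. The same held for 9 of 14 T cell markers and 10 of 12 myeloid markers. In RNA from whole cultures, fewer cells of a type and less RNA per cell cannot be told apart.

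**Figure D4:**
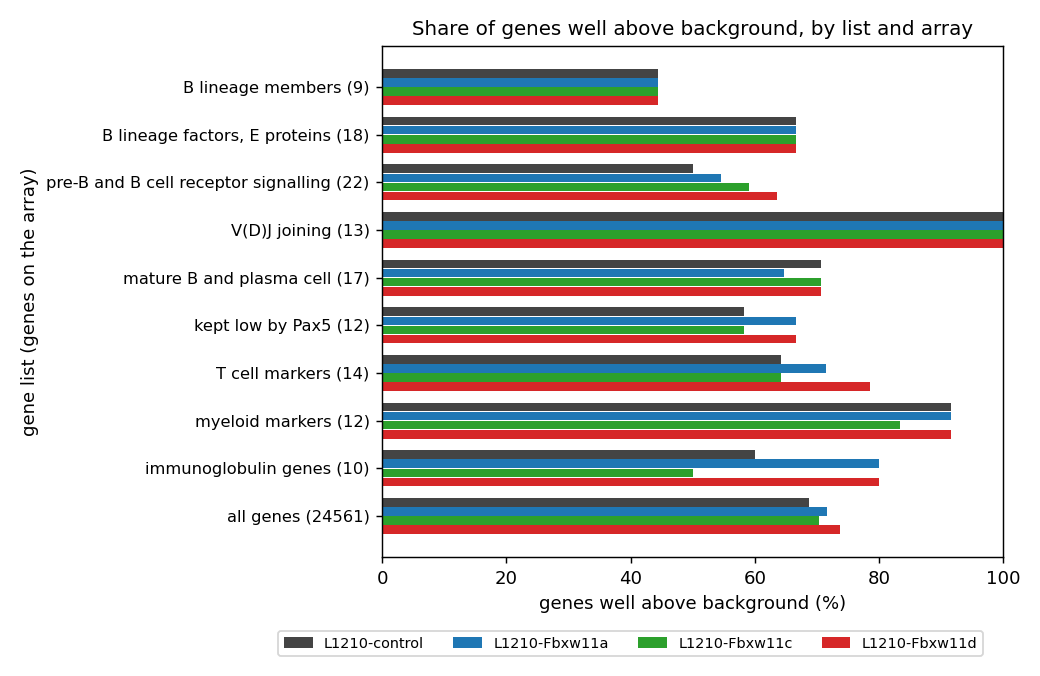
Share of genes well above background (percent) on each of the 4 arrays, for the 9 members, 8 further gene lists and all 24561 genes, each gene by its brightest probe and the number on the array in brackets. The members stay at 44.4% on every array and all 13 joining genes are measured throughout.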

How the data were processed

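RNA from 4 L1210 lines was measured on 1 Agilent 1-colour array per line. The authors deposited, for each array, the scanner software's processed signal intensity per spot, with its error and flags, and 1 table that holds the same intensity, log2 normalized values, a detection flag and gene symbols. The normalization behind the deposited log2 values is not given in the sources used here. The submitters' processing notes name Agilent Feature Extraction 9.1, and the file headers 10.7.1.1. The processed signal was used on the log2 scale after subtraction of the 75th percentile of that array's 59305 gene spots. Outlier spots (102 to 167 on an array) and controls were dropped before the spots of 1 probe were averaged. A probe was called well above background if at least 0.5 of its spots were. No gene spot was saturated. Probes above background on 1 or both arrays were compared. With only 1, the difference is a bound against the lowest signal with every spot above background on the dim array, written "at least". A gene was represented by its probe of highest mean signal. The threshold was a fold change of 2, as in the study. Errors are those of the scanner software for 1 spot, without the spread from culture, sorting or extraction.

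Precision is limited by the number of arrays, 1 per line, and no test across samples could be made. The members and the gene lists were chosen with earlier results of these data known. Named genes were all members, 9 fixed genes (Vpreb2, Vpreb3, Blnk, Dntt, Il7r, Foxo1, Ikzf1, Id2 and Id3), every gene of the transcription factor, signalling and joining lists at 2-fold, up to 4 of largest difference from each other list, and the 5 profiles nearest the member of largest spread. One gene that this rule names is not reported here. Cd4, Cd3e, Itgam, Elane, Ms4a1, Cd3g, Lyz2, Iglon5 and Id1 were named after their values were seen. Alternatives were median centring, quantile normalization, normexp (limma 3.58.1, offset 50), the deposited log2 values, flagged spots kept, other filters, thresholds of 1.5 and 3, other detection flags and the mean over probes. Scaling on 8 spike-in probes and leaving out L1210-Fbxw11d were chosen after seeing the data. Python 3.11.15, numpy 2.4.6, pandas 2.3.3 and R 4.3.3 were used. Promoter windows of the RefSeq table, GRCm38.p6, were checked for orientation against probes at transcript starts on the minus strand, of which 23 matched as written and 0 as the reverse complement.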

Additional observations from a re-analysis of the deposited data

Results flagged for a closer look

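The Cd79a junction probe was lower than L1210-control in L1210-Fbxw11a and L1210-Fbxw11c and higher in L1210-Fbxw11d, with log2 ratios of -0.60, -0.53 and 0.25 against errors of 0.27, 0.27 and 0.24 in the scanner software's model. The median SD between spots of probes printed on 10 spots was 0.26 to 0.31 at signals of 20 to 100, so the rise in L1210-Fbxw11d is within the spread of single spots. The difference on the log2 scale was 0.84 between L1210-Fbxw11d and L1210-Fbxw11a and 0.78 between L1210-Fbxw11d and L1210-Fbxw11c. With 1 array per line this difference was not tested. With normexp background correction the junction probe's log2 ratios to L1210-control were -0.23, -0.33 and -0.15 in the Fbxw11a, Fbxw11c and Fbxw11d lines. These were all below 0 and closer together. The offset of 50 in that setting is of the size of the signals and alone draws ratios together, so it does not decide the difference. The brighter Cd79a probe gave 0.02 for L1210-Fbxw11d over L1210-Fbxw11a and -0.04 for L1210-Fbxw11d over L1210-Fbxw11c. L1210-Fbxw11d is alone on slide 2.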

How the results depend on the processing

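No paired analysis was possible because each line has 1 array and no test was made. The 0 measured member probes at 2-fold in each variant line became 2 in L1210-Fbxw11a (Pax5 junction probe and Igll1), 2 in L1210-Fbxw11c (Cd79b and Igll1) and 2 in L1210-Fbxw11d (Pax5 junction probe and Cd79b) with no filter on dim probes. At 1.5-fold they became 1 in each line, the Cd79a junction probe in L1210-Fbxw11a and the Pax5 contiguous probe in the others. With spike-in scaling the count was 1 in L1210-Fbxw11c (Pax5). Between the highest and lowest arrays, 0 became 1 with median centring, 1 with quantile normalization, 1 with the deposited normalized values, 3 with spike-in scaling, 3 with no filter on dim probes and 2 at 1.5-fold. By the flag for a signal that is positive and significant, 11 member probes were detected on L1210-Fbxw11d in place of 6, and 9 on each other array. These changes in counts follow from the looser filter or threshold where that was the change, and for the scalings the cause was not tested. Of 120 alternative values for the 18 log2 ratios of measured members, 103 moved by less than the error of 1 spot and 17 by more. Of the 120, 12 had the other sign. Among these was Pax5 in L1210-Fbxw11a with the mean over probes, at -0.61, which takes in the dim junction probe. Another was the Cd79a junction probe in L1210-Fbxw11d with normexp, at -0.15, where the offset of 50 is of the size of the signals. Probes near the lowest signal well above background are limited by that signal, which differs between arrays.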
